A study of Homo sapiens with 15 samples.

Results

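The genes that move first when wild type RBM47 is switched on at a low level were sought in 9 of the 15 RNA-seq libraries of the series, those of 3 clones at 0, 1 and 2.5 ng/ml doxycycline. Doxycycline is an antibiotic that turns on the transgene in these cells. WT6 and WT10 cells carry doxycycline-inducible wild type RBM47 and MUT3 cells carry the inducible RBM47-I281fs mutant, so all 9 libraries come from cells with an inducible RBM47 construct and differ in allele and dose. The labels name MDA231, a triple negative breast cancer line, for all clones. The study's methods derive WT10 and MUT3 from its brain metastatic derivative and WT6 from another brain metastatic line, CN34-BrM2, and each clone was grown from 1 sorted cell, so that allele and clone go together for MUT3. Each clone and dose has 1 library and no replicate, and doxycycline on cells without a transgene was not analysed here. Of 23368 genes in the table, 11730 had a mean of at least 50 size-factor normalized counts over the 9 libraries. Members were those genes whose count at 1 and at 2.5 ng/ml lay above, or lay below, the untreated count of the same clone in both WT6 and WT10. There were 3510 such genes, 1552 higher (13.2% of the genes tested) and 1958 lower (16.7%). Of these, 131 also differed at least 1.3-fold at 2.5 ng/ml in both clones, 97 higher (0.827%) and 34 lower (0.29%).

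RBM47 is an RNA-binding protein with RNA recognition motifs, related to the APOBEC1 complementation factor A1CF. Proteins of this kind bind messenger RNA, often in the 3′ untranslated region (3′UTR), and can alter its splicing, stability or editing. The pentamer ATTTA is the core of the AU-rich elements that mark short-lived messages of cytokines and growth factors for decay, and decay regulators bind such elements.

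The markers matched the profile of a mesenchymal, triple negative line only in part. VIM, which encodes vimentin, had between 50755 and 101456 normalized counts, and the hormone receptors ESR1 and PGR did not exceed 20.6. The epithelial marker CDH1 did not exceed 8.53. Of the other markers looked for as absent, ERBB2 lay between 1047 and 1584, above the median tested gene at 736, and the epithelial marker EPCAM between 136.3 and 315. The message level of ERBB2, which encodes HER2, does not by itself give the receptor status. The defining leukocyte and endothelial markers PTPRC, CD3E, PECAM1 and CDH5 had 7.91 or fewer, with CD14 at up to 53.5. Of the stromal markers, COL1A2 did not exceed 3.29 and PDGFRB 22.7, while COL1A1 lay between 197.6 and 302. The libraries held between 14955172 and 23374298 reads on genes.

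RBM47 itself, on chromosome 4 (hg19, 40425284 to 40632892, minus strand), had 257.5, 3137 and 8094 normalized counts at 0, 1 and 2.5 ng/ml in WT6. In WT10 it had 167.7, 826.5 and 2822. In MUT3 it had 73.78, 92.12 and 336.1. Every induced wild type library lay above every MUT3 library, and MUT3 exceeded the untreated WT6 value only at 2.5 ng/ml. The increase at 2.5 ng/ml was 31.4-fold in WT6 (exact 95% counting interval 27.6 to 35.9), 16.8-fold in WT10 (14.3 to 19.9) and 4.55-fold in MUT3 (3.45 to 6.11). Intervals of this kind cover counting error only. MUT3 at these doses is therefore a control with less RBM47 message as well as with the mutant allele, and the effects of level, allele, clone and of doxycycline itself cannot be told apart. WT6 at 1 ng/ml and WT10 at 2.5 ng/ml had nearly the same RBM47 level.

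**Figure D1:**
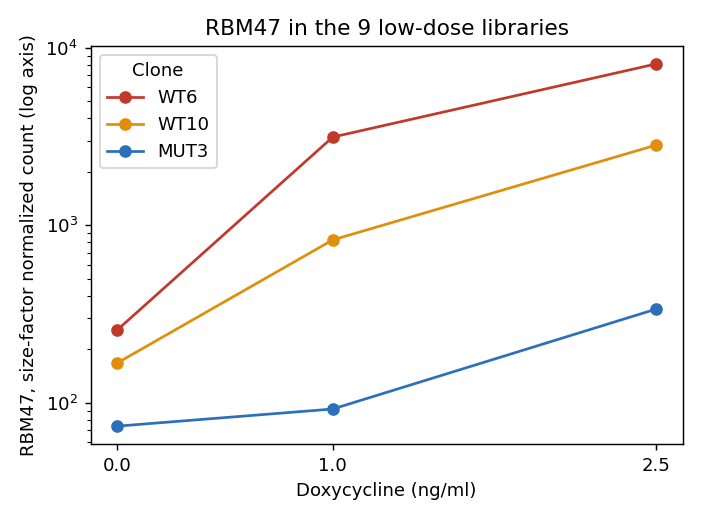
RBM47 in size-factor normalized counts (log axis) against doxycycline in ng/ml, 1 point per library and 1 line per clone. WT6 reached 8094, WT10 2822 and MUT3 336.1 at 2.5 ng/ml.

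The 131 genes past 1.3-fold in both wild type clones were 1.12% of the genes tested. The count was 42 for WT6 paired with MUT3 (0.358% of genes) and 47 for WT10 paired with MUT3 (0.401%). Genes that differed at least 1.3-fold in opposite directions at 2.5 ng/ml, with each clone moving one way at both doses, numbered 32 for WT6 and WT10, 37 for WT6 and MUT3 and 39 for WT10 and MUT3. Same-direction genes thus outnumbered opposite ones clearly in the wild type pair, and only slightly in the pairs with MUT3. Without the 1.3-fold limit the same-direction share of the wild type pair did not stand out. It was 29.9% of genes in WT6 and WT10, 24.2% in WT6 and MUT3 and 32.7% in WT10 and MUT3. Opposite genes were not counted without that limit. These counts use 1 library per condition and carry no test. In this report a gene is called higher or lower by this rule, and is said to have risen or fallen where it passed the test of the slope given further on.

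The higher genes gave a similar picture when 1 clone alone chose them and another was looked up. In WT6, 5.64% of genes were higher at 1 ng/ml and at least 1.3-fold higher at 2.5 ng/ml. Of these 660 genes other than RBM47, 54.2% were higher at both doses in WT10, against 36.5% of all genes, and 41.4% in MUT3, against 40.0% of all genes. In WT10 the share was 3.09%. Of its 362 genes, 54.7% were higher in WT6 (29.9% of all genes) and 45.6% in MUT3 (40.0%). For lower genes the shares stayed near the background. Of 393 lower genes chosen in WT6 (3.35% of genes), 45.5% were lower in WT10 against 40.6% of all genes, and of 321 chosen in WT10 (2.74%), 40.2% were lower in WT6 against 37.5%. The median log2 change at 2.5 ng/ml of these lower genes in the other wild type clone was -0.114 and -0.103, against 0.0386 and -0.00514 in MUT3. By their medians the lower genes thus also moved the same way in both wild type clones. By shares, 28.0% of those chosen in WT6 and 39.3% of those chosen in WT10 were lower in MUT3 at both doses, against 30.7% of all genes. For lower genes chosen in WT10, the excess over all genes was thus larger in MUT3 than in WT6. Higher genes chosen in MUT3 showed a smaller excess than higher genes between the wild type clones. Of these 211 genes (1.81% of genes), 37.4% were higher in WT6 against 29.9% of all genes, and 45.0% in WT10 against 36.5%, with medians of 0 and 0.0251. No difference between these shares was tested.

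**Figure D2:**
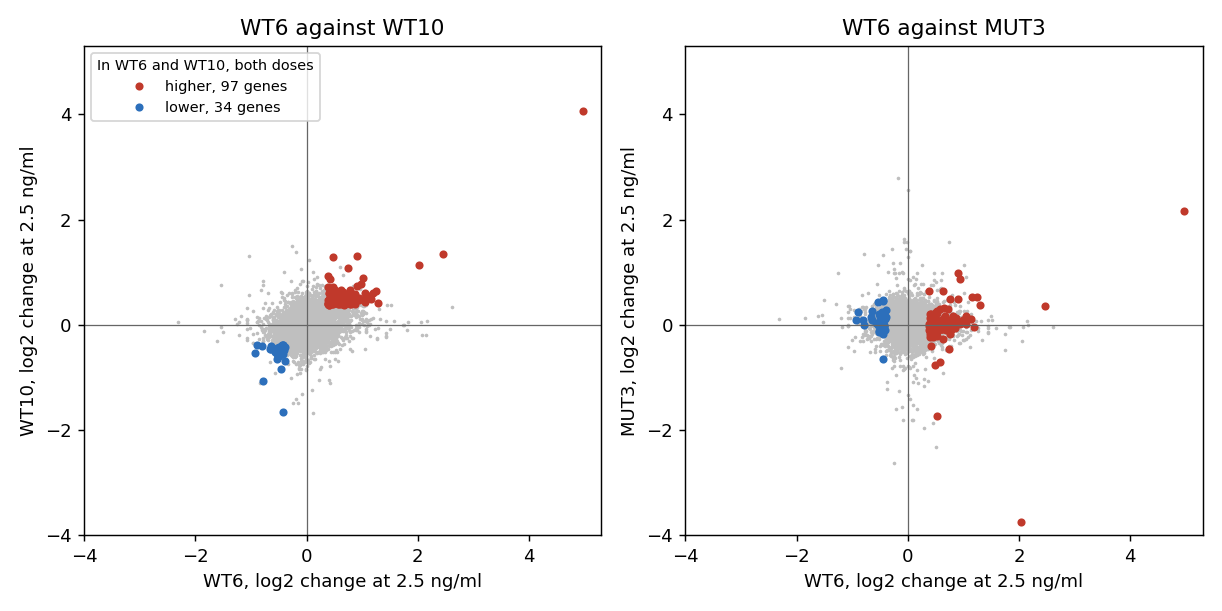
Log2 change at 2.5 ng/ml from the untreated library of the same clone, WT6 on the x axis against WT10 (left) or MUT3 (right), 1 point per tested gene. The 97 higher (red) and 34 lower (blue) genes of both wild type clones were chosen on the axes of the left panel, and in MUT3 their medians were 0.0347 and 0.105.

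The 97 higher genes had a median log2 change at 2.5 ng/ml of 0.588 in WT6, 0.488 in WT10 and 0.0347 in MUT3, where all genes tested had a median of 0.0163. The 34 lower genes had medians of -0.482 in WT6, -0.46 in WT10 and 0.105 in MUT3. The wild type medians follow from the choice of the genes and the MUT3 medians do not. In MUT3, 45 of the 97 higher genes were also higher at both doses (46.4%, against 40.0% of all genes). At least 1.3-fold higher at 2.5 ng/ml in MUT3 were 10 of the 97 (10.3%), RBM47 among them. Of all genes, 1.81% passed that limit in MUT3 and were also higher at 1 ng/ml. That is a stricter rule, so these 2 shares are not alike. The higher genes also had lower counts, with a median mean of 227 against 736 for all genes tested, and lower counts vary more. Of the 34 lower genes, 8 were lower in MUT3 at both doses (23.5%, against 30.7% of all genes). The rule fixes the direction at 1 ng/ml, and as a description the median gene there had 43.5% of its later log2 change in WT6 and 46.1% in WT10 among the higher genes, and 41.8% and 49.6% among the lower genes. Counting error limits some members, as 9 of the 131 genes had 10 or fewer reads in at least 1 wild type library and 69 had over 100 in all 6.

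The first 12 higher genes by the smaller of both clones' changes were RBM47, IL1A, RMRP, IL8, ULBP2, C6orf57, IL7R, HSPB8, ZNF569, PRSS16, ZNF468 and CLIC3. They include a cytokine, a chemokine, a cytokine receptor and a ligand of an immune receptor. AU-rich stretches in the 3′UTRs of several of these messages, and of DKK1, which passed the 1.3-fold limit further down the order, are shown because the higher genes as a group had AU-rich 3′UTRs, as described further on. VEGFA, which fell, is shown beside them as a message of the other direction with as many pentamers in its window as IL1A, ULBP2 and DKK1, while no window of IL7R held more than 1. The best windows of TMED5, F2RL1 and SERPINB2, and of the lower genes SUN2 and KCNAB2, also held 1 and are not shown. The 3′UTR of SECTM1, another lower gene, held 0. Each stretch shown is the 25-base window of the 3′UTR with the most ATTTA pentamers, read 5′ to 3′ on the strand of the transcript in hg19, and capitals mark the pentamers. The windows lie at chr4:74608831-74608855 on the plus strand for IL8, chr2:113532009-113532033 on the minus strand for IL1A, chr6:150270276-150270300 on the plus strand for ULBP2, chr10:54077118-54077142 on the plus strand for DKK1 and chr6:43753611-43753635 on the plus strand for VEGFA.
IL8: ATTTAttATTTAtgtATTTATTTAa
IL1A: tattATTTAtatatgtATTTAtaaa
ULBP2: ttATTTAataagaaaaaATTTAtat
DKK1: aataaaATTTAacATTTAatatcat
VEGFA: aatATTTAatttcaactATTTAtga

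IL1A, which encodes the cytokine interleukin 1 alpha, had 26.3, 50.44 and 149.2 normalized counts at 0, 1 and 2.5 ng/ml in WT6. In WT10 it had 95.2, 142.7 and 244.3, and in MUT3 81.29, 104.3 and 104.8. Within each wild type clone the order of the libraries followed the dose, and in MUT3 both induced libraries were alike. Its increase at 2.5 ng/ml was 5.67-fold in WT6 (3.69 to 9.09) and 2.57-fold in WT10 (2 to 3.31), against 1.29-fold in MUT3 (0.938 to 1.78). Its 3′UTR of 1142 bases holds 5 ATTTA.

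IL8, now named CXCL8, encodes a chemokine that draws neutrophils. It had 142.5, 167.8 and 266.9 normalized counts in WT6, and 266.1, 388.7 and 655.2 in WT10. In MUT3 it had 293.9, 406.2 and 303.4, so that the MUT3 library at 1 ng/ml was as high as that of WT10 and the library at 2.5 ng/ml had returned to its untreated level. The increase at 2.5 ng/ml was 1.87-fold in WT6 (1.52 to 2.32), 2.46-fold in WT10 (2.12 to 2.86) and 1.03-fold in MUT3 (0.868 to 1.23). The 3′UTR of 1252 bases holds 9 ATTTA, 4 of them in the window shown.

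ULBP2, a ligand of the natural killer cell receptor NKG2D, had 432.9, 618.7 and 877.3 normalized counts in WT6. It had 346.2, 456.2 and 645.3 in WT10 and 337.6, 370.7 and 346.9 in MUT3. All induced wild type libraries lay above all MUT3 libraries. The increase at 2.5 ng/ml was 2.03-fold in WT6 (1.8 to 2.28), 1.86-fold in WT10 (1.63 to 2.14) and 1.03-fold in MUT3 (0.874 to 1.21). ULBP2 is one of a family of similar genes, and the counting is not stated to have resolved reads shared among them.

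IL7R, the receptor chain for interleukin 7, had 306.9, 344.8 and 514.1 normalized counts in WT6 and 29.21, 43.4 and 62.83 in WT10. In MUT3 it had 45.02, 33.3 and 32.62, with a ratio at 2.5 ng/ml of 0.725 whose interval includes 1 (0.438 to 1.2). IL7R reached a mean of 50 only through WT6. PRSS16, a serine protease, was 2.41-fold higher at 2.5 ng/ml in WT6 and 1.58-fold in WT10, but 1.46-fold in MUT3 as well (0.967 to 2.22). C6orf57, now SDHAF4, an assembly factor of succinate dehydrogenase, was 1.99-fold higher in WT6 and 1.72-fold in WT10, and 1.07-fold in MUT3. HSPB8, a small heat shock protein, was 1.88-fold higher in WT6 and 1.7-fold in WT10 (1.02 to 2.88), and had at most 1 read in a MUT3 library. Like IL7R, HSPB8 reached a mean of 50 only through WT6, as it did not exceed 45.88 normalized counts in WT10. CLIC3 had 439.1 normalized counts in WT6 at 2.5 ng/ml, but no more than 5.787 in WT10 and none in MUT3, so that its place among the first 12 rests on WT6 alone.

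RMRP, the RNA component of a mitochondrial RNA processing ribonuclease, had 26.3, 95.73 and 110.8 normalized counts in WT6 and 12.98, 51.12 and 29.92 in WT10. In MUT3 it went the other way, with 265.1, 33.3 and 18.78. RMRP carries no poly(A) tail, the libraries were made from poly(A) RNA, and the untreated MUT3 library also stood apart in other RNAs described further on.

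Zinc finger genes named ZNF made up 6 of the 97 higher genes (6.19%), against 3.41% of all genes tested and none of the 34 lower genes, a grouping chosen after the values were seen. Among the 726 genes that rose by the test of the slope the share was lower than over all genes, at 11 genes (1.52%). All 6 lie on chromosome 19. ZNF569 had 1.72-fold in WT6 and 1.6-fold in WT10 at 2.5 ng/ml, and 1.04-fold in MUT3. ZNF468 had 1.54-fold and 1.55-fold, and 0.826-fold in MUT3. The family has many similar members, whose shared reads the counting is not stated to have resolved.

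The first 12 lower genes were SCNN1G, ARTN, SECTM1, GLB1L2, MARCH2, LRRC33, HOXB3, PPP1R3F, SUN2, PGF, APLF and PCDHGC3. SCNN1G, a subunit of the epithelial sodium channel, had 610.4, 568.2 and 354.7 normalized counts in WT6, but at most 1 read in a WT10 library and none in MUT3, so that its place rests on WT6 alone and no change can be given for the other clones. PCDHGC3 shares exons with its gene cluster and its count is uncertain.

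SUN2, which encodes a protein of the inner nuclear membrane that links the nucleus to the cytoskeleton, was the most abundant of them. It had 1524, 1330 and 963.4 normalized counts in WT6 and 1585, 1434 and 1148 in WT10. In MUT3 it had 1366, 1361 and 1515. Both wild type libraries at 2.5 ng/ml lay below all other libraries. The ratio at 2.5 ng/ml was 0.632 in WT6 (0.584 to 0.684), 0.724 in WT10 (0.67 to 0.783) and 1.11 in MUT3 (1.03 to 1.2).

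SECTM1, a secreted and transmembrane protein of immune signalling, had 1490, 1425 and 1032 normalized counts in WT6 and 322.4, 273.9 and 219.4 in WT10. In MUT3 it had 268.9, 330.7 and 361.8, the opposite direction to the wild type clones. Its ratio at 2.5 ng/ml was 0.693 in WT6 (0.641 to 0.749), 0.681 in WT10 (0.569 to 0.813) and 1.35 in MUT3 (1.13 to 1.6). ARTN, a ligand of the RET receptor pathway, had a ratio of 0.51 in WT6 (0.27 to 0.941) and 0.684 in WT10 (0.463 to 1.01), on as few as 19 reads. MARCH2, an E3 ubiquitin ligase, had 0.694 and 0.639, with 0.909 in MUT3 (0.758 to 1.09). PGF, placental growth factor of the VEGF family, had 0.637 in WT6 (0.419 to 0.961) and 0.725 in WT10 (0.599 to 0.877), with 1.21 in MUT3 (0.952 to 1.53).

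**Figure D3:**
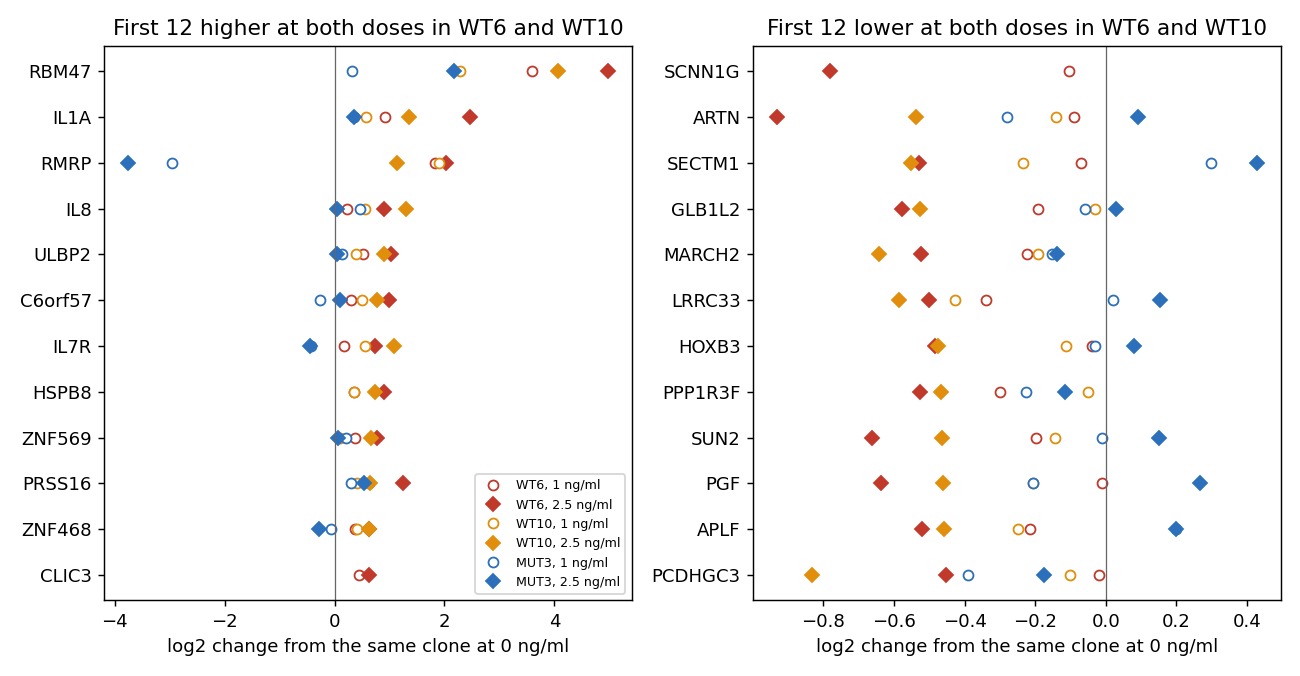
Log2 change from the untreated library of the same clone for the first 12 higher (left) and first 12 lower (right) genes, open circles at 1 ng/ml and filled diamonds at 2.5 ng/ml, coloured by clone. Points are left out where a clone had 3 or fewer reads in either library compared, as for SCNN1G in WT10. The blue diamonds of MUT3 lie near 0 for most genes and at -3.75 for RMRP.

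Further members were chosen for description after their values were seen, by what they do. Among higher genes, 3 act on sugars of secreted proteins: GFPT1, the first enzyme of the hexosamine pathway, GALNT3, which starts O-linked glycans, and MAN1A1, a Golgi mannosidase. GFPT1 had 2052, 2131 and 3023 normalized counts in WT6, 1380, 1559 and 1953 in WT10, and 1586, 1641 and 1551 in MUT3. GALNT3 was 1.4-fold higher at 2.5 ng/ml in WT6, 1.38-fold in WT10 and 1.02-fold in MUT3, and MAN1A1 1.44-fold, 1.46-fold and 1.2-fold. For GFPT1 most of the change in WT6 came between 1 and 2.5 ng/ml.

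The autophagy genes ATG4A, a protease, and GABARAPL1, of the family this protease cleaves, were 1.55-fold and 1.34-fold higher in WT6 at 2.5 ng/ml, 1.49-fold and 1.34-fold in WT10, and 1.08-fold and 1.11-fold in MUT3. PTGS2, the inducible cyclooxygenase, was 1.5-fold higher in WT6, 1.35-fold in WT10 and 1.24-fold in MUT3. BACH1, a repressor of antioxidant genes, had 324.4, 393.2 and 536.3 normalized counts in WT6, 560.4, 652 and 795.9 in WT10, and 726.6, 776.9 and 748.2 in MUT3. CYP1B1, an oxidase of hormones and xenobiotics, had 2341, 2558 and 3862 in WT6, 1044, 1177 and 1488 in WT10, and 1123, 1164 and 1099 in MUT3. TNIK, a kinase that acts in Wnt signalling, was 2.08-fold higher in WT6, 1.53-fold in WT10 and 1.1-fold in MUT3. In each of these genes the wild type libraries followed the dose in both clones.

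Among lower genes, CDH4, the adhesion protein R-cadherin, had 2630, 2189 and 1680 normalized counts in WT6, 3189, 2756 and 2419 in WT10, and 3145, 2890 and 3355 in MUT3. KCNAB2, a potassium channel subunit, had 823, 672.2 and 567 in WT6, 2343, 1937 and 1729 in WT10, and 480.2, 499.4 and 476.4 in MUT3. The transcription factor GATA2 had 699.2, 595 and 500.5 in WT6, 327.8, 247.9 and 245.3 in WT10, and 66.28, 59.93 and 74.13 in MUT3. KCNAB2 and GATA2 differed several-fold in level between the clones.

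The changes of the higher genes were larger in WT6 for 66 of the 97, and those of the lower genes for 20 of the 34. Over all genes WT6 also had more past 1.3-fold, 661 higher and 393 lower against 363 and 321 in WT10. The exact 95% counting interval of the change at 2.5 ng/ml lay clear of 1 in both clones for 73 of the 97 higher and 22 of the 34 lower genes. The same changes chose these genes, so these counts describe their depth of reads and are no test.

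Just inside the limits of the rule, LOC400236 had a mean of 50.19 and SSR4P1 50.29, and just outside UCP3 had 49.94 and LOC100506939 49.4. At the fold limit, the smaller log2 change was 0.38 for YOD1 and NHLRC3, just inside, and 0.377 for EXOC6 and 0.376 for C11orf54, just outside. Among lower genes it was -0.381 for IRF2BP1 and -0.384 for COL9A2, just inside, and -0.375 for C14orf37 and -0.372 for MSX2, just outside.

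The slope on dose was tested across all 11730 genes with limma, with 1 slope on log2(dose + 1) shared by WT6 and WT10 and another for MUT3. A slope is the log2 change in normalized count per unit of log2(dose + 1), of which the step from 0 to 2.5 ng/ml is 1.81. The disagreement of the wild type clones and the curvature of the dose response make up the error. At a Benjamini-Hochberg adjusted p under 0.05, 726 genes rose (6.19%) and 881 fell (7.51%), together 13.7% of the genes tested. In MUT3, 0 genes rose and 8 fell (0.0682%), with 493 genes at an unadjusted p under 0.05. By edgeR on the recovered reads the MUT3 counts were 0 and 7, and by DESeq2 1 and 6. The wild type slope rests on 6 libraries and the MUT3 slope on 3, so the counts of the clones are not comparable in power. The difference between both slopes passed the test for 26 genes (0.222%), with the wild type slope higher in 14 (0.119%) and lower in 12 (0.102%). In a fit with a slope for each clone, WT6 and WT10 differed from each other in 33 genes (0.281%), with WT6 higher in 27 and lower in 6. In that same fit the averaged slope of WT6 and WT10 differed from MUT3 in 73 genes. The wild type count depended on the libraries at 2.5 ng/ml and on the weights: 12 genes were called without those libraries, 307 without WT6 at 2.5 ng/ml, 379 without WT10 at 2.5 ng/ml and 1 without precision weights.

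Of the 97 higher genes 81 passed this test (83.5%), and of the 34 lower genes 25 (73.5%). As the same libraries chose them, these shares are a description.

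The largest t among the 726 rising genes other than RBM47 belonged to ULBP2 and SERPINB2, the latter named after its values were seen. SERPINB2, an inhibitor of urokinase, had 13858, 17795 and 26578 normalized counts in WT10 and 8012, 8782 and 8296 in MUT3. In WT6 it had only 20.82, 18.53 and 33.25, so that it is no member by the rule and its slope of 0.51 ± 0.04 (SE) rests on WT10. ULBP2 had a slope of 0.54 ± 0.05, IL1A of 0.98 ± 0.12 (adjusted p = 0.000158) and IL8 of 0.66 ± 0.08 (adjusted p = 0.000171), all by limma. TMED5, a cargo receptor between endoplasmic reticulum and Golgi, had 3053, 3680 and 4744 normalized counts in WT6, 1588, 1865 and 2232 in WT10, and 1771, 1833 and 1908 in MUT3. Its slope was 0.32 ± 0.03 (limma adjusted p = 6.46e-06), and that of MUT3 0.0591.

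DKK1, HTATIP2, HBP1 and MXI1 belong to a list of tumour suppressor genes. DKK1, HTATIP2 and HBP1 rose and MXI1 did not pass the test. The list was chosen by the study on these same samples and is no independent evidence of its direction. DKK1, a secreted inhibitor of Wnt signalling, had 13399, 17147 and 21688 normalized counts in WT6 and 7579, 8307 and 10223 in WT10. In MUT3 it had 5945, 5698 and 5550. The order followed the dose upward in both wild type clones and downward in MUT3. The increase at 2.5 ng/ml was 1.62-fold in WT6 (1.58 to 1.65) and 1.35-fold in WT10 (1.31 to 1.39), and the MUT3 ratio was 0.934 (0.898 to 0.971). The wild type slope exceeded the MUT3 slope by 0.37 ± 0.06 (limma adjusted p = 0.00358). HTATIP2 and HBP1 were 1.58-fold and 1.55-fold higher in WT6 at 2.5 ng/ml and 1.13-fold and 1.21-fold in WT10. Their wild type slopes were not shown to differ from MUT3 (limma adjusted p = 0.295 and 0.468). MXI1, a MYC antagonist, was 1.21-fold higher in WT6 (1.02 to 1.45), 1.06-fold in WT10 (0.921 to 1.22) and 1.17-fold in MUT3 (1.04 to 1.33).

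VEGFA, the vascular endothelial growth factor, fell in the wild type fit and went the other way in MUT3. It had 1435, 1310 and 1049 normalized counts in WT6, 1150, 1164 and 1031 in WT10, and 1404, 1691 and 1818 in MUT3. In WT10 the library at 1 ng/ml was not below the untreated one, so that VEGFA is no member by the rule. The wild type slope was lower than that of MUT3 by 0.371 on the log2 scale, with an SE of 0.0691 (limma adjusted p = 0.0228).

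Among genes of the secretory pathway from endoplasmic reticulum to Golgi, 11 of 20 tested rose and 0 fell, against 6.19% and 7.51% of all genes. Their median slope was 0.11, where all genes had -0.00957, and 0.0309 in MUT3. They included the inner coat proteins of COPII vesicles SEC23A, SEC23B, SEC24A and SEC24D, the COPI coat subunit COPB1, the small GTPases SAR1B, ARF4 and RAB1A, and the cargo receptors LMAN1, TMED5 and TMED7. At 2.5 ng/ml their median log2 change was 0.219 in WT6, 0.155 in WT10 and 0.0517 in MUT3. At 1 ng/ml it was -0.0444 in WT6 and 0.0593 in WT10, and only 4 of the 20 were higher at both doses in both clones. SEC23B had 3247, 3373 and 4061 normalized counts in WT6, 2133, 2309 and 2603 in WT10, and 1933, 1901 and 2042 in MUT3. The count was 3 once each library's trends with GC content and transcript length had been taken out, 2 without WT6 at 2.5 ng/ml and 3 without WT10 at 2.5 ng/ml. This list, like the others, was chosen with earlier results of these data known, and TMED5 and SEC24A are first responders themselves.

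Over all genes 6.19% rose and 7.51% fell, and the counts of the lists that follow are to be read beside these shares. Genes that passed were more abundant, with a median mean count of 903 for those that rose and 2250 for those that fell. All genes tested had 736. The shares are not matched for the abundance of the list genes, here or for the secretory pathway. Of 17 NF-kB cytokine and feedback genes tested, IL8, IL1A, IL1B, NFKBIZ, BIRC3 and ICAM1 rose and 0 fell, with a median slope of 0.135 in the wild type clones and 0.0965 in MUT3. IL1B, the cytokine interleukin 1 beta, had 54.09, 113.8 and 116.7 normalized counts in WT10 and 60.03, 124.3 and 109.7 in MUT3, so that both clones of the same line moved alike. In WT6 it had 28.49, 26.76 and 43.48. ICAM1, an adhesion molecule, was 1.11-fold higher at 2.5 ng/ml in WT6, 1.52-fold in WT10 and 1.82-fold in MUT3 (1.58 to 2.1), so that the largest change was in the control. NFKBIZ, a nuclear IkB protein, had 1.29-fold in WT6, 1.34-fold in WT10 and 0.977-fold in MUT3. No NF-kB list gene had a wild type slope that differed from MUT3 at an adjusted p under 0.05, and the nearest was IL8 (limma, 0.62 ± 0.14, adjusted p = 0.0569). DESeq2 called 1 of the 17, and the count was 2 without untreated WT10, 2 without WT10 at 2.5 ng/ml and 3 without WT6 at 2.5 ng/ml or with those trends taken out.

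Mitosis genes fell in 7 of 18 tested (CCNB1, CCNB2, CDC20, AURKB, PLK1, KIF20A and CENPF) and none rose. The median log2 change of the list at 2.5 ng/ml was -0.411 in WT6 but 0.00529 in WT10 and 0.0643 in MUT3. CCNB1, cyclin B1, had 10038, 9592 and 7036 normalized counts in WT6, 5833, 5696 and 5732 in WT10, and 6819, 7107 and 6982 in MUT3. These calls rested on WT6, as without WT6 at 2.5 ng/ml 0 of 18 passed, and the count was 2 without untreated WT6 and 13 without untreated WT10. Among G1/S genes, MCM2, MCM5, MCM7, CDT1 and CHAF1A fell, 5 of 19, and none rose. MCM2, a subunit of the replicative helicase, had 4874, 4266 and 4083 normalized counts in WT6, 3650, 3458 and 3205 in WT10, and 2949, 3013 and 3195 in MUT3. With those trends taken out, 0 of the 19 passed, and 1 passed without either wild type library at 2.5 ng/ml in turn.

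Genes of cholesterol synthesis and its control moved in both directions, with 6 of 20 rising (HMGCS1, IDI1, CYP51A1, MSMO1, INSIG1 and STARD4) and 3 falling, among them the transcription factor SREBF2. HMGCS1, an early enzyme of the pathway, had 2228, 2514 and 3999 normalized counts in WT6 and 440.3, 491.9 and 524.6 in WT10. Without WT6 at 2.5 ng/ml 1 rose and 0 fell, without WT10 at 2.5 ng/ml 4 and 1, and with those trends taken out 3 and 1. Of 15 hypoxia and glycolysis genes, VEGFA, SLC2A1, ENO1 and ALDOA fell and 0 rose. The count fell to 2 without either the untreated WT6 library or WT6 at 2.5 ng/ml, and to 1 without WT10 at 2.5 ng/ml or with those trends taken out. SLC2A1, the glucose transporter GLUT1, had 14056, 13078 and 11144 normalized counts in WT6, 11774, 10847 and 9638 in WT10, and 7177, 7473 and 7847 in MUT3. It followed the dose downward in both wild type clones and upward in MUT3, and its wild type slope was lower by 0.241 on the log2 scale, with an SE of 0.0462 (limma adjusted p = 0.0285).

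Of 14 YAP and TGF-beta target genes CYR61, ANKRD1 and SKIL rose while AMOTL2, AXL, F3, ID1 and ID3 fell. Without WT6 at 2.5 ng/ml 0 rose and 0 fell, without WT10 at 2.5 ng/ml 2 and 0, without untreated WT6 2 and 2, and with those trends taken out 1 and 2. CYR61, a matricellular protein, was 1.27-fold higher at 2.5 ng/ml in WT6 and 1.04-fold in WT10. Of 21 Wnt pathway genes DKK1 rose, and the ligand WNT7B, the receptor FZD2 and the co-receptor LRP5 fell. The falls became 0 without WT6 at 2.5 ng/ml, without WT10 at 2.5 ng/ml and with those trends taken out, and 2 without untreated WT10, while 1 rise was called in each. WNT7B had 55.89, 45.29 and 40.92 normalized counts in WT6, 517.1, 455.2 and 393.9 in WT10, and 241.4, 264.1 and 330.1 in MUT3. Among 14 immediate early genes EGR1 rose and the AP-1 subunits FOSL1 and JUN fell, of which 0 fell without WT10 at 2.5 ng/ml, 1 without untreated WT10 and 3 list genes without untreated WT6, where 0 rose. Of 19 regulators of mRNA decay, 2 rose, among them the decapping enzyme DCP2, while KHSRP, which binds AU-rich elements, and the nonsense-mediated decay helicase UPF1 fell. Without either wild type library at 2.5 ng/ml in turn 1 rose and 0 fell, and without untreated WT10 4 fell. Of 18 genes of the ATF4 stress response DDIT4 alone fell. Of 17 interferon-stimulated genes 0 passed, with OAS2 and OASL having the largest t (limma adjusted p = 0.259 and 0.147). Of the 4 tested genes of the list of RBM47 and its relatives only RBM47 passed.

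**Figure D4:**
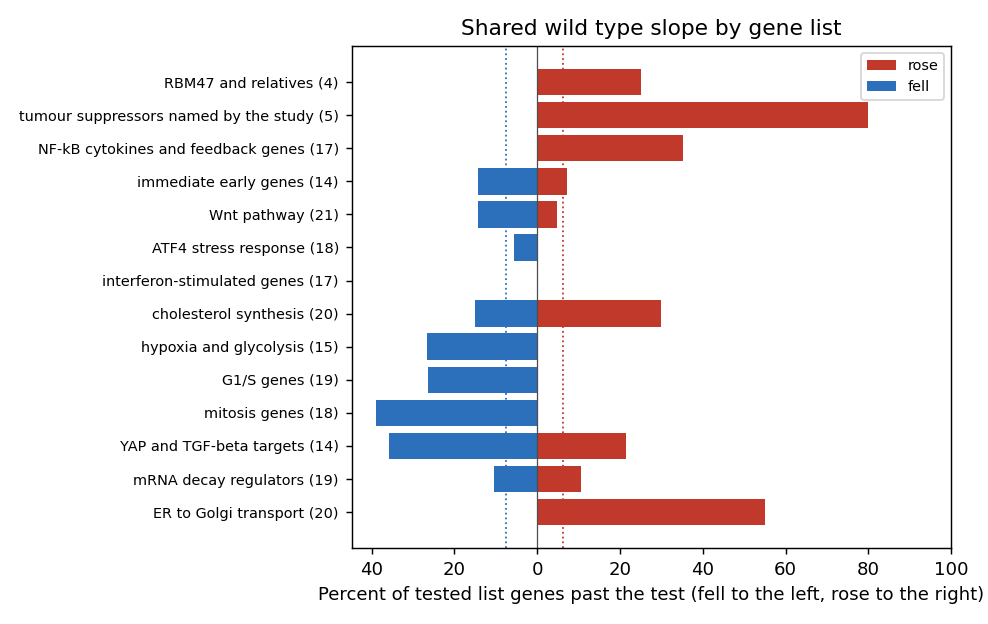
Share of the tested genes of each list (number in brackets) that passed the shared wild type slope test, in percent, with genes that fell to the left and genes that rose to the right. Dotted lines mark the shares of all genes tested, not matched for abundance. The lists were chosen with earlier results of these data known. Secretory pathway genes rose in 11 of 20 and mitosis genes fell in 7 of 18.

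Beside DKK1, VEGFA and SLC2A1, the 26 genes whose wild type slope differed from MUT3 included ULBP2, SUN2 and SECTM1 of the first responders. The difference was 0.51 ± 0.09 for ULBP2 (limma adjusted p = 0.0153). SUN2 was lower by 0.38, with an SE of 0.0705 (adjusted p = 0.0228), and SECTM1 by 0.518, with an SE of 0.103 (adjusted p = 0.0332). MMP1, the interstitial collagenase, and the kinase PAK4 were also among them and are named after their values were seen. MMP1 had 715.6, 930.6 and 1413 normalized counts in WT6, 4091, 4618 and 5277 in WT10, and 41122, 39330 and 36105 in MUT3. Its slope was 0.549 in WT6 and 0.202 in WT10, and these differed (limma adjusted p = 0.0411), so that the wild type clones did not share 1 slope. PAK4 had 1933, 1756 and 1456 in WT6, 2076, 1875 and 1546 in WT10, and 1758, 1777 and 1919 in MUT3. In 6 of the 26 genes (RMRP, MALAT1, HIST1H1E, MIR3648, MIR3687 and KIAA0754) the MUT3 slope itself passed the test, with high counts in the untreated MUT3 library. MALAT1, a nuclear long non-coding RNA, had 7339, 4318 and 2208 normalized counts in MUT3, against 4511, 7161 and 6465 in WT6 and 2482, 3713 and 3535 in WT10. Without the untreated MUT3 library, 1 gene differed between wild type and MUT3.

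The 3′UTRs of the genes that rose were long and AU-rich, and held more ATTTA than those of all genes. Of all genes tested 11080 were matched to a coding transcript with a 3′UTR, with a median 3′UTR GC content of 41.9% (quartiles 35.3 and 51.4) and a median length of 1366 bases. The 709 rising genes so matched had medians of 34.9% GC (32.2 to 38.0) and 2148 bases. The 867 falling genes had 53.5% (48.6 to 58.4) and 844 bases. ATTTA, searched on the transcript strand with overlaps counted, was present at least once in 74.3% of all these 3′UTRs, 94.4% of those of rising genes and 57.0% of those of falling genes. Per kilobase the medians were 1.77, 3.14 and 0.646. A run of at least 8 T was present in 40.2%, 56.4% and 27.5%. The first responders showed the same contrast in GC content, with medians of 35.6% for the 90 higher genes with a 3′UTR and 52.4% for the 31 lower genes. In ATTTA and length the lower ones did not share it: 83.9% of their 3′UTRs held ATTTA, more than the 74.3% of all genes, and their median length was 1414 bases. A match to ATTTA is a description of the sequence and not a binding site. ATTTA is made of A and T only, so its number follows the AU content and length of a 3′UTR. An excess of ATTTA beyond these was not tested.

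This contrast was part of a trend over all genes that differed between the libraries. From the fifth of genes with the lowest 3′UTR GC content to the fifth with the highest, the median log2 change at 2.5 ng/ml went from 0.129 to -0.193 in WT10, from 0.0502 to -0.0751 in WT6 and from 0.0315 to 0.0111 in MUT3. At 1 ng/ml it went from 0.05 to -0.0954 in WT10, from 0.0386 to -0.0381 in MUT3 and, in the opposite direction, from -0.0243 to 0.0395 in WT6. The trend thus appeared in both wild type clones at 2.5 ng/ml and was small in MUT3 at that dose, but was also present in MUT3 at 1 ng/ml. GC content varies with library preparation as well, and the part of preparation in this trend was not tested. Once each library's trends with GC content and transcript length had been taken out, 316 genes rose and 305 fell. The rising genes then had a median 3′UTR GC content of 37.9% and 2.37 ATTTA per kilobase, and the falling genes 41.5% and 1.61. The removal takes out any real dependence on GC content together with a technical one.

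**Figure D5:**
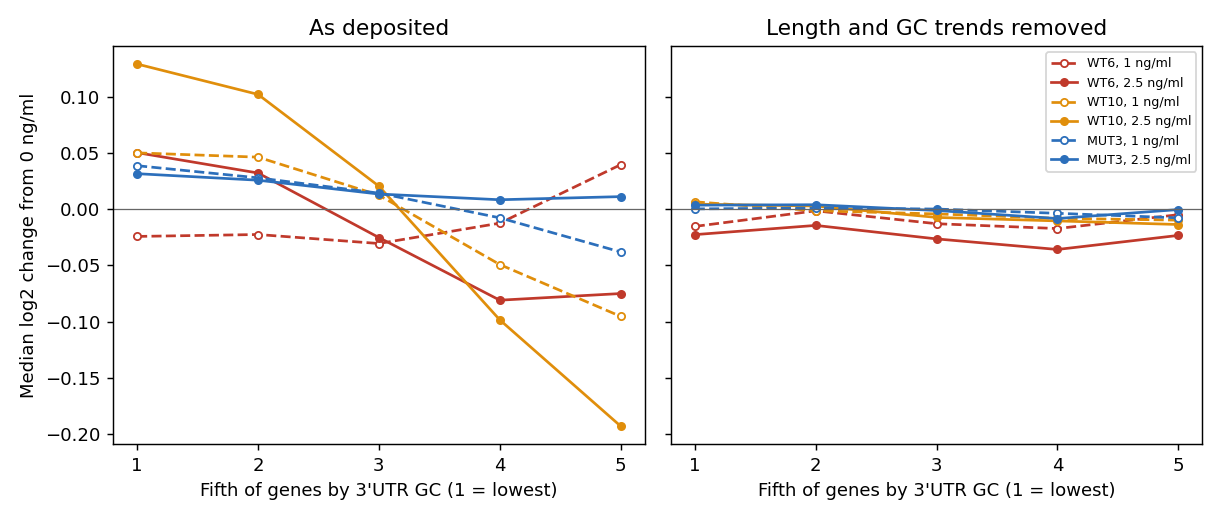
Median log2 change from the untreated library of the same clone in 5 equal bins of genes by 3′UTR GC content, for each induced library, as deposited (left) and after removal of length and GC trends (right). WT10 at 2.5 ng/ml runs from 0.129 to -0.193 and MUT3 at 2.5 ng/ml from 0.0315 to 0.0111.

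The same removal left 49 of the 97 higher and 10 of the 34 lower genes past 1.3-fold in both clones, while 91 and 28 kept their direction in all 4 induced wild type libraries. Of the 97 higher genes 93 had the length needed for it.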

How the data were processed

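RNA-seq of poly(A) RNA was analysed from 9 libraries, 1 for each of 3 clones (WT6, WT10, MUT3) and 3 doses. Per the paper's methods and the labels, the authors aligned reads with STAR (hg19), obtained gene counts from HTSeq 0.5.4 and divided the counts by DESeq size factors, so that the deposited values are a signal per gene, called normalized counts here. The gene annotation and library strandedness are not given in the sources used here. Every column was a whole multiple of its smallest value above 0 in 100% of its values (tolerance 0.01 reads), which recovered the reads. Between 56.6% and 58.8% of reads were on no gene and stayed out of the tests.

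Genes with a mean of at least 50 were tested on log2(value + 1) with limma 3.58.1 (R 4.3.3), with vooma precision weights, an intercept per clone, 1 slope for both wild type clones and 1 for MUT3 (4 residual degrees of freedom, moderated). Benjamini-Hochberg adjustment covered all 11730 genes. Genes named are the first 12 in each direction by the smaller of both clones' log2 changes at 2.5 ng/ml, 8 genes the study names, list genes past the test (otherwise the 2 with the largest t) and those next to the limits. Other names were chosen after their values were seen and say so. The members and gene lists were chosen with earlier results of these data known. Symbols were matched to GENCODE on hg19 (19556 directly, 1933 by an older symbol). Fold intervals are exact binomial at 95% on recovered reads, conditional on their sum. At 3 or fewer reads (worth 2.56 to 3.75) no fold is given. The calls of the fit were checked on simulated counts without trends on length or GC content and with the same dose response in both wild type clones. That check does not cover such trends or a response of 1 clone. Alternatives used edgeR 4.0.16, DESeq2 1.42.0, TMM factors, other filters, pseudocounts and covariates, removal of length and GC trends, and left-out libraries. The libraries at 5 and 25 ng/ml were not used here. Values of some genes of the lists are not reported here.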

Additional observations from a re-analysis of the deposited data

Results flagged for a closer look

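A test of the difference between the shared wild type slope and that of MUT3 singled out 26 genes. For DKK1 the difference was 0.368, for ULBP2 0.511, for SERPINB2 0.481 and for MMP1 0.425 on the log2 scale per unit of log2(dose + 1). It was -0.371 for VEGFA, -0.38 for SUN2, -0.328 for CDH4, -0.518 for SECTM1, -0.293 for PAK4 and -0.241 for SLC2A1. For RMRP it was 3.25 and for MALAT1 1.23, with a fall in MUT3 from high counts in the untreated library. For MMP1 the slopes of WT6 and WT10 differed from each other as well.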

How the results depend on the processing

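The wild type slope passed for 1607 genes, with 3403 at an unadjusted p under 0.05. With any low dose set against none it passed for 0 (1502 unadjusted), without precision weights for 1 (2858), without the libraries at 2.5 ng/ml for 12 and without those at 1 ng/ml for 729. It passed for 727 genes with log2 RBM47 in place of the dose, 1015 without a filter, 927 by DESeq2, 1462 by edgeR and 621 with length and GC trends removed. Leaving out 1 library gave between 307 (WT6 at 2.5 ng/ml) and 2083 (WT6 at 1 ng/ml). The count in MUT3, 8, was 2 for any dose, 4 with log2 RBM47, 3 without weights and 4 with a mean of at least 50 in each clone, and between 0 and 12 with 1 library left out. The difference between them, 26 genes, was 3 for any dose, with log2 RBM47 and without weights, 73 with a slope per clone, 7 without a filter, 15 by edgeR, 9 without 2.5 ng/ml, and between 1 (untreated MUT3 left out) and 189 (untreated WT10 left out). The split of wild type calls, 726 higher and 881 lower, was 795 and 716 with TMM factors and 798 and 664 by edgeR. The 131 first responders became 17 at 1.5-fold, 274 with a mean of at least 10, 81 with length and GC trends removed, and 107 with a pseudocount of 10, the last added after seeing the data.

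Of 2448 slopes of 107 named genes under these alternatives, 1782 kept direction and call, 654 kept only the direction, 8 gained a call and 4 turned direction. Without 2.5 ng/ml, OASL had a slope of 0.173, SEC24D of -0.0124 and TMED7 of -0.0367. OAS2 had -0.243 without untreated WT10 and 0.425 without WT10 at 2.5 ng/ml. The causes were not tested. Libraries were paired by clone through an intercept per clone, and no replicate block could be added because the labels give no replicate numbers and each clone and dose has 1 library. Depth limits genes of few reads: a count of 3 reads equals up to 3.75 in these units.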
